A study of Caenorhabditis elegans with 6 samples.

Results

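The DBL-1 pathway is the branch of transforming growth factor beta (TGF-beta) signalling that sets body size in the nematode Caenorhabditis elegans. Its 10 genes were found by matching the listed symbols to the gene identifiers of the expression table, which holds 46778 genes. The members are the ligand gene dbl-1, the receptor genes sma-6 and daf-4, the co-factor gene sma-10, the Smad genes sma-2, sma-3 and sma-4, the Smad partner gene sma-9, and the negative regulators lon-2 and lon-1. All 10 symbols matched 1 identifier each.

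RNA was sequenced from animals treated with HLB01, in 3 libraries, and from Control animals, in 3 libraries. HLB01 is a code name, and the series title speaks of ageing, collagen and an extract of Vicatia thibetica root. The labels give the same organism as the source of all 6 libraries, and no source used here gives the strain, age, dose or duration. For the treated animals the agent field reads HLB01, HLB02 or HLB03, while the titles name replicates 1 to 3 of HLB01, and the titles set the groups. Nothing in the labels says that the replicates came from separate cultures, so a p-value reflects only how these libraries spread, which may be technical.

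DBL-1 is a secreted ligand of the bone morphogenetic protein type, made largely in neurons. It binds a receptor complex in the epidermis, the complex phosphorylates receptor-regulated Smad proteins, and these enter the nucleus with a common Smad to change transcription, including that of cuticle collagen genes. Animals that lack a positive component are small (sma), and animals that lack an inhibitor are long (lon). The pathway is also known for roles in the male tail, in innate immunity and in fat storage.

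Values were read as TPM from their nearly equal library totals, 996559 to 997388. In TPM the reads of a gene are divided by its length and libraries are set to a common total. Levels of different genes can then be set side by side. The read depth behind them is unknown, because TPM keeps no depth. HLB01 replicate 3 lay far from the rest on principal component 1 (31.3% of the variance) and had the highest ribosomal RNA at 4895 TPM, against 530 to 2684 TPM elsewhere. Markers of epidermis, muscle, neurons, intestine, pharynx and germline were all present. However, the epidermal genes dpy-7, wrt-2 and grd-10 and the pharynx gene ceh-22 averaged under 1 TPM. In whole-animal RNA, fewer cells of a type and less RNA per cell cannot be told apart.

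All 10 genes were expressed above the filter of 1 TPM in at least 3 libraries, and none differed between HLB01 and Control animals at the threshold. Mean levels in HLB01 ranged from 0.84 times the Control mean, for the receptor-regulated Smad gene sma-3, to 1.13 times, for the downstream gene lon-1. In limma with a mean-variance trend on log2(TPM + 1), 0 of 10 genes had a Benjamini-Hochberg adjusted p below 0.05, where 0.397% of the 12590 tested genes were called. Without adjustment 1 of the 10, lon-1, had p below 0.05, against 8.32% of all tested genes. Limma without the trend, with array weights or with any other setting tried called none either, and leaving out HLB01 replicate 3 also gave 0 calls. The median absolute log2 fold change was 0.06 over the 10 genes and 0.08 over all tested genes.

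**Figure D1:**
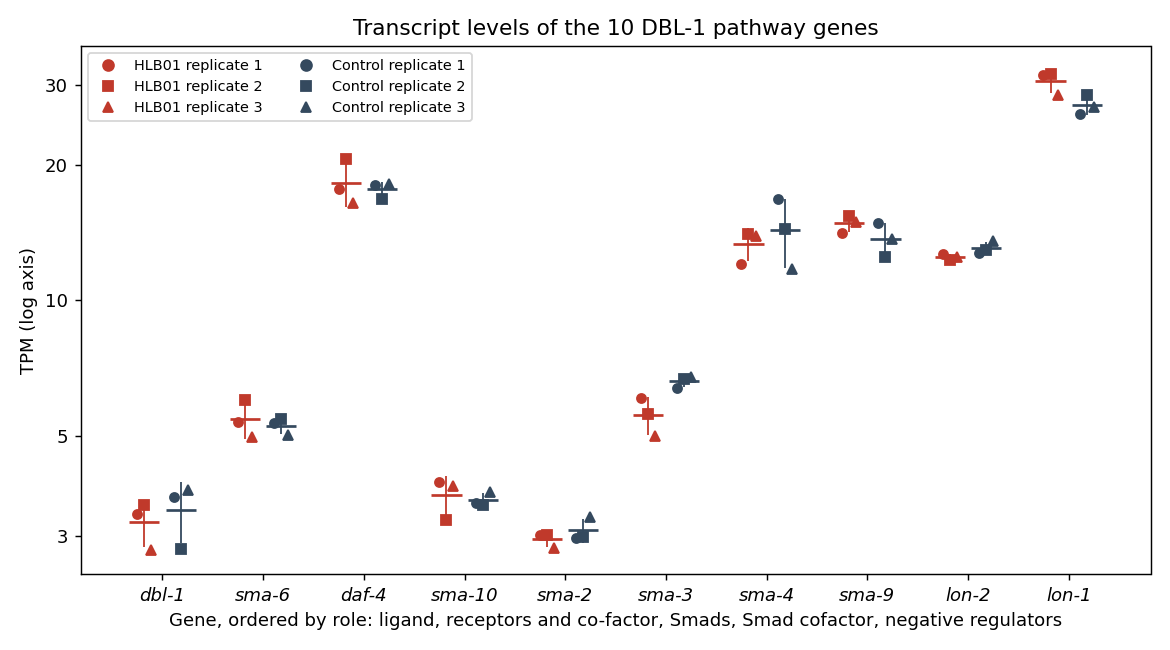
TPM (log axis) of the 10 DBL-1 pathway genes in each library, HLB01 left of Control, with the mean (horizontal line) and SD (vertical line) of 3 libraries per group. The groups overlap for 7 genes, and the HLB01 points lie below the Control points for sma-3 and lon-2 and above them for lon-1.

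The ligand gene dbl-1 (WBGene00000936; WBcel235 chromosome V, 6758135 to 6760418, plus strand, 1 annotated transcript) was among the lowest of the set. It was at 3.35, 3.52 and 2.79 TPM in HLB01 libraries, against 3.66, 2.81 and 3.79 TPM in Control libraries. The groups overlapped, and the lowest value of each group was nearly the same. The means were 3.22 ± 0.382 and 3.42 ± 0.532 TPM in HLB01 and Control (SD, n = 3 each), and the log2 fold change was -0.06 ± 0.14 (SE; 95% confidence interval -0.38 to 0.26, limma adjusted p = 0.934). Without HLB01 replicate 3 the difference was 0.01, of the other sign. Neuronal markers, of which 6 of 6 were tested and none was called, summed to 373 to 406 TPM in HLB01 libraries and 395 to 418 TPM in Control libraries. Of the 6, 4 log2 fold changes were positive and 2 negative (-0.14 to 0.22). In 1 of the 6 the HLB01 values were higher without overlap, as in 6.85% of all tested genes.

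The receptor genes were expressed at unequal levels. The gene daf-4 (chromosome III, 5625135 to 5632323), which encodes the type II receptor shared with the dauer branch of TGF-beta signalling, was at 17.67, 20.56 and 16.45 TPM in HLB01 libraries, against 17.99, 16.80 and 18.07 TPM in Control libraries. The gene sma-6 (chromosome II, 6324484 to 6327355), for the type I receptor that is particular to body size signalling, was at 5.37, 6.02 and 4.97 TPM in HLB01 libraries, against 5.33, 5.46 and 5.02 TPM in Control libraries. Both genes were highest in HLB01 replicate 2, and both pairs of groups overlapped. The log2 fold changes were 0.04 ± 0.09 for daf-4 (95% confidence interval -0.17 to 0.26, limma adjusted p = 0.936) and 0.04 ± 0.10 for sma-6 (-0.20 to 0.28, limma adjusted p = 0.95). Left without HLB01 replicate 2, the differences were -0.04 and -0.02. The daf-4 level was 3.34 ± 0.07 times that of sma-6 in HLB01 libraries and 3.35 ± 0.26 times in Control libraries (mean ± SD of the ratio within a library, n = 3 each). The non-coding RNA gene C05D2.11 lies within the daf-4 span on the same strand. It averaged 2.73 TPM and shares no exonic base with daf-4.

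The co-factor gene sma-10 (chromosome IV, 274420 to 279943) encodes a transmembrane protein of the LRIG family that binds the receptors and promotes signalling. It was at 3.96, 3.25 and 3.87 TPM in HLB01 libraries and 3.55, 3.51 and 3.75 TPM in Control libraries. The HLB01 values enclosed the Control values. The log2 fold change was 0.02 ± 0.11 (95% confidence interval -0.23 to 0.28, limma adjusted p = 0.971), and its sign changed with the library left out.

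Of the receptor-regulated Smad genes, sma-3 (chromosome III, 6860974 to 6863968, minus strand) had values without overlap between the groups. It was at 6.08, 5.58 and 5.0 TPM in HLB01 libraries, against 6.38, 6.70 and 6.76 TPM in Control libraries. Every HLB01 library lay below every Control library, with HLB01 replicate 3 lowest. The means were 5.55 ± 0.54 and 6.61 ± 0.204 TPM in HLB01 and Control (SD, n = 3 each), and the log2 fold change was -0.22 ± 0.10 (SE; 95% confidence interval -0.45 to 0.01, limma adjusted p = 0.617). A two-sided exact permutation test gave p = 0.1, the smallest that 3 libraries against 3 can give. The difference was -0.16 without HLB01 replicate 3 and between -0.28 and -0.16 over all libraries left out in turn. With all libraries and a pseudocount of 1 TPM, it had the largest absolute difference of the members, greater than that of 84.4% of tested genes. The largest was instead lon-1 without HLB01 replicate 3 (0.22) or with a pseudocount of 5 TPM (0.15), and sma-4 without Control replicate 3 (-0.21).

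Its partner sma-2 (chromosome III, 8749680 to 8757089), the other receptor-regulated Smad gene of the pathway, had the lowest mean, with a range that overlapped those of dbl-1 and sma-10. It was at 3.02, 3.02 and 2.82 TPM in HLB01 libraries and 2.97, 2.98 and 3.31 TPM in Control libraries. The groups overlapped, with a log2 fold change of -0.05 ± 0.10 (95% confidence interval -0.29 to 0.19, limma adjusted p = 0.934). The end of sma-2 shares 100 exonic bases with aak-1, which encodes a catalytic subunit of AMP-activated kinase, and its start shares 52 with ugtp-1, both on the other strand. These neighbours averaged 31.4 and 31.1 TPM over the 6 libraries, and no source used here states a strand setting, so reads in the shared bases cannot be told apart. Also on the other strand, tomm-70, at 34.2 TPM, lies within the sma-2 span and shares no exonic base.

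The ratio of sma-3 to sma-2 was 2.01, 1.85 and 1.77 in HLB01 libraries, against 2.15, 2.25 and 2.04 in Control libraries. The HLB01 ratios were below the Control ratios in every library, at 1.88 ± 0.12 against 2.15 ± 0.10 (mean ± SD, n = 3 each). The ratio shares the sma-3 values given above and adds no separate evidence.

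The common Smad gene sma-4 (chromosome III, 5816232 to 5820204), whose product joins the receptor-regulated Smads, was the most variable member in Control libraries. It was at 12.02, 14.04 and 13.90 TPM in HLB01 libraries, against 16.74, 14.37 and 11.76 TPM in Control libraries. The Control values enclosed all HLB01 values. The log2 fold change was -0.08 ± 0.13 (95% confidence interval -0.39 to 0.22, limma adjusted p = 0.906) and 0.03 without Control replicate 1. The sma-4 level was 1.58 ± 0.23 times the sum of sma-2 and sma-3 in HLB01 libraries and 1.48 ± 0.31 times in Control libraries (mean ± SD, n = 3 each).

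The gene sma-9 (chromosome X, 10769282 to 10782973) encodes a large zinc finger protein related to Schnurri of Drosophila, which works with Smads in the nucleus, and it has 16 annotated transcripts, the most of the set. It was at 14.09, 15.41 and 14.95 TPM in HLB01 libraries and 14.81, 12.47 and 13.70 TPM in Control libraries. The groups overlapped through HLB01 replicate 1 and Control replicate 1. The log2 fold change was 0.11 ± 0.08 (95% confidence interval -0.08 to 0.31, limma adjusted p = 0.795). Values are per gene, so a change in the share of its transcripts would not be seen.

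**Figure D2:**
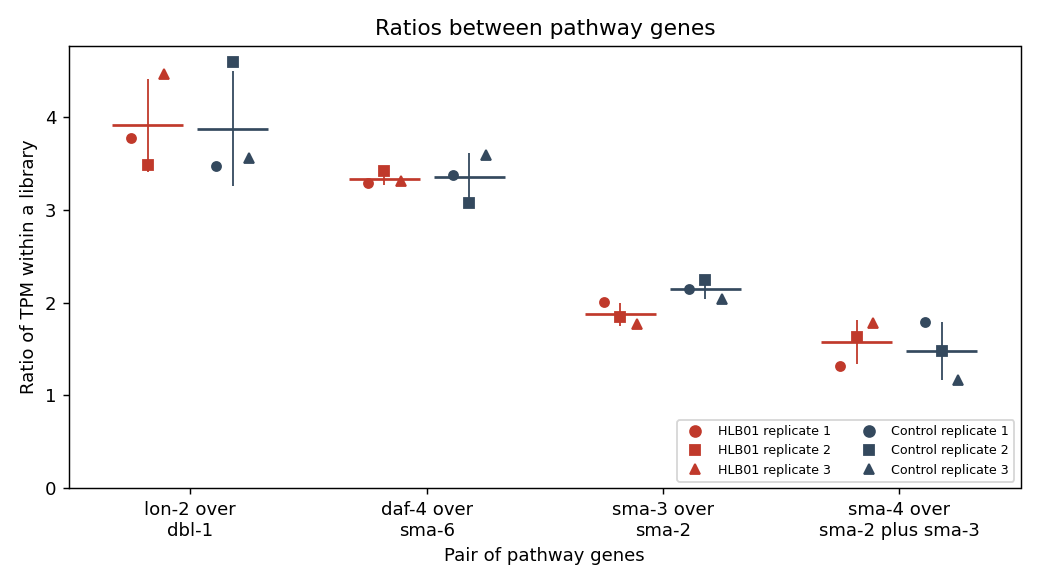
Ratio of TPM between pathway genes within each library, HLB01 left of Control, with the mean and SD of 3 libraries per group. The ratio of sma-3 to sma-2 averaged 1.88 in HLB01 and 2.15 in Control libraries without overlap, and the groups overlap for the other 3 ratios.

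The negative regulators lon-2 and lon-1 differed in opposite directions, each without overlap of the groups and neither past the threshold. The gene lon-2 (chromosome X, 4738964 to 4749083, minus strand) encodes a glypican, a cell surface proteoglycan that binds DBL-1 and limits signalling. It was at 12.67, 12.29 and 12.48 TPM in HLB01 libraries, against 12.75, 12.92 and 13.50 TPM in Control libraries. The highest HLB01 value and the lowest Control value were close, and the overall difference was small, at a log2 fold change of -0.06 ± 0.07 (95% confidence interval -0.22 to 0.10, limma adjusted p = 0.864). Under median scaling or quantile normalization the lon-2 groups overlapped. Its ratio to dbl-1 was 3.92 ± 0.50 in HLB01 libraries and 3.88 ± 0.62 in Control libraries (mean ± SD, n = 3 each).

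The gene lon-1 (chromosome III, 5474476 to 5478005) encodes a secreted protein of the cysteine-rich CRISP type that is made in the epidermis and acts downstream of the Smads. The pathway is known to repress its transcription. It was at 31.60, 31.71 and 28.54 TPM in HLB01 libraries, against 25.94, 28.49 and 26.77 TPM in Control libraries. Every HLB01 library lay above every Control library, HLB01 replicate 3 only just above Control replicate 2. The means were 30.6 ± 1.8 and 27.1 ± 1.3 TPM in HLB01 and Control (SD, n = 3 each), and the log2 fold change was 0.17 ± 0.07 (SE; 95% confidence interval 0.01 to 0.33, limma unadjusted p = 0.036, adjusted p = 0.56). The exact permutation test gave p = 0.1, two-sided, again the smallest possible. Without HLB01 replicate 3 the difference was 0.22, and over all libraries left out in turn it was 0.14 to 0.22. Epidermal markers, of which 4 of 7 were tested and none was called, summed to 116 to 130 TPM in HLB01 libraries and 118 to 127 TPM in Control libraries. Of the 4, 2 log2 fold changes were negative and 2 positive (-0.30 to 0.06). In 1 of the 4 the HLB01 values were lower without overlap, as in 6.99% of all tested genes.

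In all, 1 member lay higher in HLB01 without overlap, where 6.85% of tested genes did, and 2 lay lower, where 6.99% did. With 10 genes these counts are small, and no test was made of them.

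Averaged over the 6 libraries, lon-1 was highest at 28.8 TPM, above 60.3% of tested genes, followed by daf-4 at 17.9 TPM. The genes sma-9, sma-4 and lon-2, at 14.2, 13.8 and 12.8 TPM, had overlapping ranges and could not be put in order. The genes sma-3 and sma-6, at 6.08 and 5.36 TPM, also overlapped. So did sma-10, dbl-1 and sma-2, at 3.65, 3.32 and 3.02 TPM, the last above 20.8% of tested genes. Of the 10 genes, 5 are on chromosome III, where lon-1, daf-4 and sma-4 lie within 346 kb.

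Extracellular, membrane and cytoplasmic modulators of DBL-1 signalling were at similar levels in both groups. Of 11 such genes tested, 0 were called by limma, where 0.397% of all tested genes were called. None had an unadjusted p below 0.05, where 8.32% of all tested genes did. Among the log2 fold changes 3 were positive and 8 were negative, and the median was -0.04 against 0.00 over all tested genes. The tetraspanin gene tsp-12, whose product promotes signalling, averaged 115 ± 4.77 TPM in HLB01 and 111 ± 3.02 TPM in Control (SD, n = 3 each; limma adjusted p = 0.822). Its relative tsp-21 averaged 9.77 ± 0.407 TPM in HLB01 and 10.7 ± 1.17 TPM in Control (limma adjusted p = 0.83). The retromer gene vps-35, needed to recycle SMA-6, averaged 38.9 ± 0.899 and 37.3 ± 1.41 TPM in HLB01 and Control (limma adjusted p = 0.832). The secreted protease gene adt-2 averaged 8.17 ± 0.355 and 8.70 ± 0.227 TPM in HLB01 and Control (limma adjusted p = 0.844). The other 7 genes, crm-1, drag-1, unc-40, tsp-14, sup-17, kin-29 and dpy-23, had log2 fold changes of -0.11 to 0.08.

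The dauer branch, which shares DAF-4 with the body size branch, and the other TGF-beta ligand genes gave no call either. Of 10 listed genes 9 were tested, and limma called 0, where 0.397% of all tested genes were called. None had an unadjusted p below 0.05, where 8.32% of all tested genes did. Of the 9 log2 fold changes 8 were negative, with a median of -0.06. For 7 of the 9 the sign changed with some library left out. The gene bra-1, for a receptor-associated protein that holds back the dauer branch, was at 16.05, 16.45 and 13.26 TPM in HLB01 libraries, against 20.84, 16.58 and 17.74 TPM in Control libraries. Its groups did not overlap, by a narrow margin between HLB01 replicate 2 and Control replicate 2 (log2 fold change -0.25 ± 0.11, limma adjusted p = 0.617). So 1 of the 9 lay lower without overlap, where 6.99% of all tested genes did. The ligand gene tig-2 averaged 4.51 ± 0.381 and 5.10 ± 0.465 TPM, the ligand gene daf-7 6.12 ± 0.948 and 6.58 ± 0.440 TPM, and daf-5, for a Sno/Ski partner of the branch's Smads, 17.2 ± 1.91 and 18.3 ± 1.56 TPM in HLB01 and Control (SD, n = 3 each; limma adjusted p = 0.794, 0.877 and 0.874). The ligand gene tig-3 stayed between 0.09 and 0.33 TPM and was not tested. It shares 386 of its 1464 exonic bases with Y46E12BL.2 on the other strand, which averaged 18.8 TPM. With no strand setting stated, reads in the shared bases cannot be told apart.

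Among 10 genes reported to respond to DBL-1, 6 were tested, and the antimicrobial peptide gene cnc-2 fell in HLB01 animals to less than the level of any Control library. Limma called 1 of the 6, lower in HLB01, where 0.397% of all tested genes were called, and 4 had an unadjusted p below 0.05, where 8.32% of all tested genes did. The list median was 0.11, with 4 positive and 2 negative log2 fold changes. The gene cnc-2 (WBGene00000556, chromosome V, 1449665 to 1450183) encodes a caenacin, an epidermal peptide induced by fungal infection through DBL-1. It was at 16.08, 12.55 and 13.94 TPM in HLB01 libraries, against 30.74, 26.93 and 31.82 TPM in Control libraries. All HLB01 values were far below the Control values, 2.10-fold in the means (log2 fold change -1.02 ± 0.10 SE, limma adjusted p = 0.0156). The size held at -1.11 to -0.95 with each library left out, and the call was lost without HLB01 replicate 3 (limma adjusted p = 0.0531), Control replicate 1 (0.067) or Control replicate 3 (0.0676). Other caenacin genes are similar in sequence, so the division of reads between them is uncertain.

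The saposin-like gene spp-9, which is known to be held down by DBL-1, had values without overlap in the other direction. It was at 61.38, 69.21 and 44.51 TPM in HLB01 libraries, against 23.81, 24.23 and 34.54 TPM in Control libraries. The nearest libraries were the replicates 3 of both groups. The means were 58.4 ± 12.6 and 27.5 ± 6.08 TPM in HLB01 and Control (SD, n = 3 each), 2.12 times as high, but the spread was wide and the gene did not pass (log2 fold change 1.05 ± 0.19 SE, limma adjusted p = 0.107, 0.0533 to 0.373 over the alternatives). Without HLB01 replicate 3 the difference was 1.23 (limma adjusted p = 0.0633). The fatty acid desaturase gene fat-7 was at 36.59, 37.19 and 35.21 TPM in HLB01 libraries and 28.42, 25.33 and 30.86 TPM in Control libraries, again without overlap (log2 fold change 0.36 ± 0.08, limma adjusted p = 0.18). Its close relative fat-6 averaged 322 ± 19.3 and 292 ± 14.8 TPM in HLB01 and Control, with overlap (limma adjusted p = 0.599). How reads were divided between fat-7 and the more abundant fat-6 was not checked. A direction of response to DBL-1 is given here for lon-1, cnc-2 and spp-9 only, by no rule set beforehand. None is given for fat-7, fat-6 and lys-8, with higher means in HLB01 (log2 fold changes 0.36, 0.14 and 0.09), or for col-142, with a lower mean (-0.15). The genes with a given direction therefore do not stand for the list. Whether the values as a set follow DBL-1 output was not tested.

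The lysozyme gene lys-8 averaged 554 ± 11.4 and 522 ± 40.3 TPM in HLB01 and Control (SD, n = 3 each; limma adjusted p = 0.77). Intestinal markers, of which 6 of 6 were tested and none was called, summed to 2660 to 3130 TPM in HLB01 libraries and 3190 to 3560 TPM in Control libraries, without overlap. Of their log2 fold changes 1 was positive and 5 were negative, with a median of -0.10. The genes asp-1 (-0.23) and act-5 (-0.19) lay lower in HLB01 without overlap, where 6.99% of all tested genes did. The gene vha-6 (0.18) lay higher without overlap, where 6.85% did, and elt-2, ges-1 and ifb-2 overlapped at -0.13 to -0.03. Of the 6, 3 had a limma unadjusted p below 0.05, where 8.32% of all tested genes did. The genes spp-9, fat-7 and fat-6, which the intestine expresses, had higher means in HLB01, and the part of the markers in these values was not tested.

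The cuticle collagen genes of the list were mostly near 0. Only col-142 was tested, at 5.44 ± 0.820 TPM in HLB01 and 6.10 ± 0.567 TPM in Control (SD, n = 3 each; limma adjusted p = 0.825). The genes rol-6, lon-3, col-41 and col-141 stayed below 1 TPM in every library. The rol-6 maximum, 0.94 TPM, was in HLB01 replicate 2, against 0.00 to 0.18 TPM in the other 5 libraries. The gene col-41 was at 0.16, 0.25 and 0.13 TPM in HLB01 libraries and 0.00, 0.03 and 0.03 TPM in Control libraries, too low for a test. Moulting markers, of which 4 of 6 were tested and none was called, summed to 11.3 to 16.1 TPM in HLB01 libraries and 14.1 to 16.4 TPM in Control libraries.

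**Figure D3:**
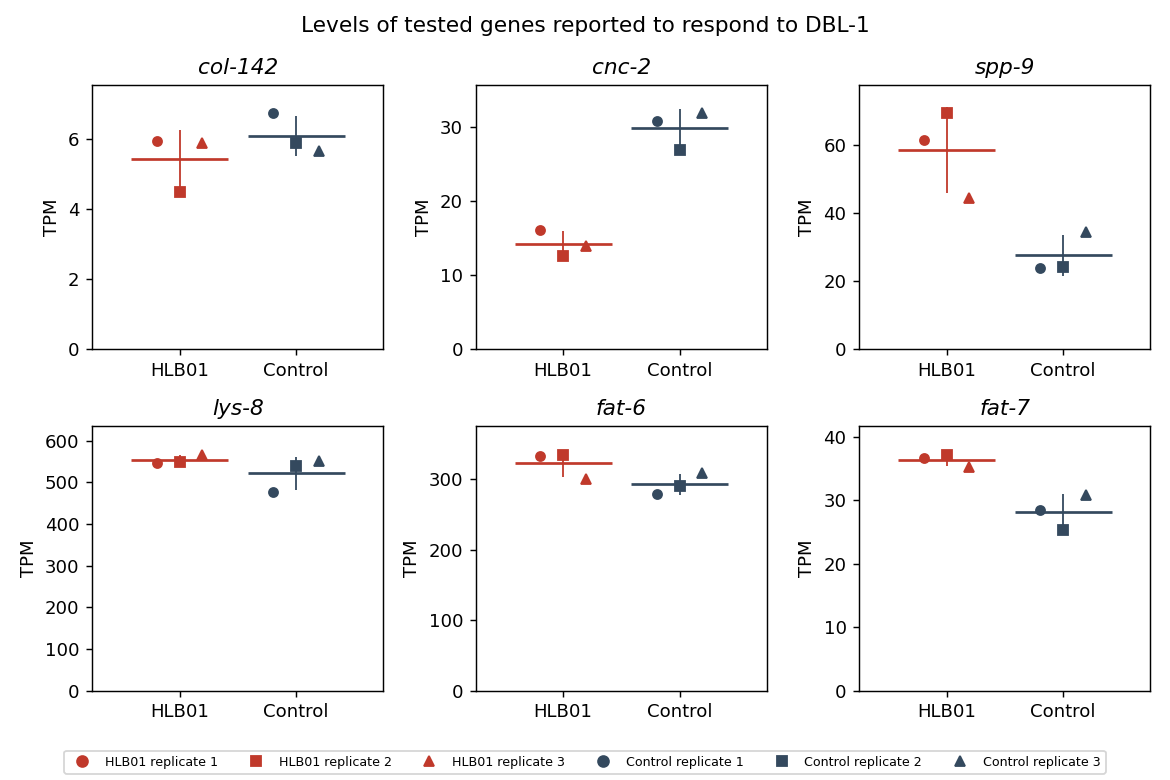
TPM of the 6 tested genes that are reported to respond to DBL-1, each on an axis from 0, HLB01 left of Control, with the mean and SD of 3 libraries per group. The cnc-2 points are lower in HLB01 (12.55 to 16.08 TPM) than in Control (26.93 to 31.82 TPM), spp-9 and fat-7 are higher in HLB01, and the groups overlap for col-142, lys-8 and fat-6.

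Of 6 other genes known to affect body size, among them egl-4, whose effect on size is known to run through the DBL-1 pathway, 5 were tested. Limma called 0 of the 5, where 0.397% of all tested genes were called. Of these 5, lon-8, which encodes a secreted epidermal protein that limits length, had a limma unadjusted p of 0.015. Over all tested genes 8.32% had an unadjusted p below 0.05. The gene lon-8 was at 5.15, 5.61 and 5.24 TPM in HLB01 libraries, against 4.31, 3.43 and 4.21 TPM in Control libraries. All HLB01 values were above all Control values, as in 6.85% of all tested genes (log2 fold change 0.35 ± 0.11, limma adjusted p = 0.392). The spectrin gene sma-1, the kinase gene egl-4 and the kinase gene sma-5 had log2 fold changes of -0.06 ± 0.09, -0.02 ± 0.05 and -0.02 ± 0.11 (SE; limma adjusted p = 0.897, 0.96 and 0.977). The kinase gene wts-1 was at a log2 fold change of 0.01, and the groups of sma-1, egl-4, sma-5 and wts-1 overlapped. The transcription factor gene rnt-1 was below the filter.

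**Figure D4:**
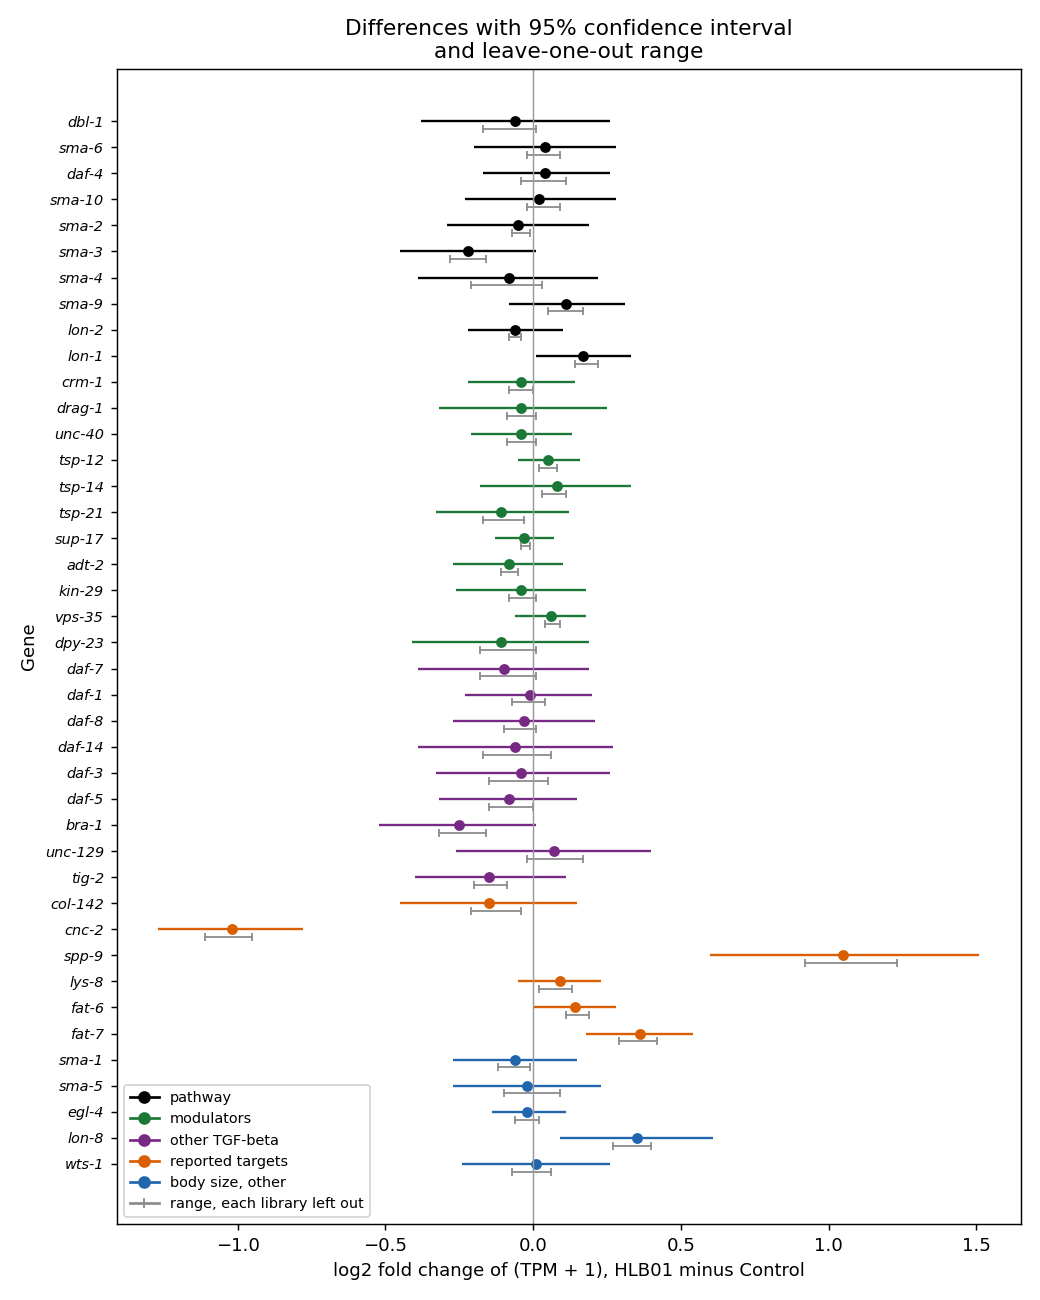
Log2 fold change of (TPM + 1), HLB01 minus Control, with its 95% confidence interval (coloured line) and the range over fits that leave out 1 library in turn (grey line), for the 10 pathway genes and the tested genes of 4 related lists. The pathway genes lie between -0.22 and 0.17, while cnc-2 lies at -1.02 and spp-9 at 1.05.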

How the data were processed

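The authors deposited values for 46778 genes, read here as TPM, 1 column per library. The tools fastp, HISAT and RSEM and the build WBcel235 come from the submitters' processing notes. Their versions, the annotation release, filters and strandedness are not given in the sources used here. Symbols and positions came from the Ensembl annotation of WBcel235, and 43818 identifiers had a symbol. No library repeated another: at most 2.62% of genes reaching 1 TPM had equal values in a pair.

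From the deposited TPM, log2(TPM + 1) was computed and compared between groups with limma 3.58.1 (R 4.3.3) and a mean-variance trend, two-sided, over the 12590 genes that reached 1 TPM in 3 or more libraries, with Benjamini-Hochberg adjustment over all of them and a threshold of 0.05. Such fold changes understate the change of low genes. The script was tested on simulated data. The members and lists were chosen with earlier results of these data known, so no list was tested. Named are all members, and from each list genes past the threshold and up to 4 others with the smallest p, with low genes added after their values were seen. Also named, outside this rule, are col-142, wts-1, the remaining modulators and the single intestinal markers. The 16 alternatives changed the pseudocount, filter, scaling, model, block or libraries.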

Additional observations from a re-analysis of the deposited data

How the results depend on the processing

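Under all 16 alternatives, limma called 0 pathway members, 0 modulators, 0 other TGF-beta genes and 0 other body size genes. Where an alternative changed the values or the libraries, members without overlap of the groups numbered 2 to 4. They were 3 to 4 of 10 with 1 library left out, where the share of all tested genes was 22.3% to 25.7%. In the main fit they were 3 of 10, where it was 13.8%. With all libraries they were 2 of 10 under median scaling (14.8%) or quantile normalization (14.4%), and 3 of 7 with the filter of 5 TPM (14.5%). The signs of sma-2, sma-3, sma-9, lon-2 and lon-1 did not change under any alternative. The filter of 5 TPM gave no value for dbl-1, sma-10 and sma-2. With 1 library left out, signs changed for 5 of 10 members, 5 of 11 modulators, 7 of 9 other TGF-beta genes, 0 of 6 reported responsive genes and 3 of 5 other body size genes. Among them were dbl-1 (-0.17 to 0.01), sma-6 (-0.02 to 0.09), daf-4 (-0.04 to 0.11), sma-10 (-0.02 to 0.09), sma-4 (-0.21 to 0.03), daf-5 (-0.15 to 0.00), daf-7 (-0.18 to 0.01), egl-4 (-0.06 to 0.02) and sma-5 (-0.10 to 0.09). Signs also changed for sma-10 (0.00) and sma-5 (0.04) with array weights and for egl-4 and sma-5 (both 0.00) with median scaling. The cause was not tested.

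Of all tested genes, 21 were called higher and 29 lower. These counts were 9 and 13 with no filter, 11 and 16 without the trend, 33 and 47 with array weights, and 8 to 12 and 11 to 23 with 1 library left out. Reported DBL-1-responsive genes called were 0 to 1 with 1 library left out. The replicate numbers share no stated source, and same-numbered libraries deviated with correlations of -0.013, 0.038 and 0.127, so they were not taken as pairs. With the replicate block, 17 genes were called higher and 31 lower, cnc-2 had a limma adjusted p of 0.0141, and HLB01 replicates 2 and 3, but not 1, correlated best with their own number. With 1 library left out, the ratio of lon-2 to dbl-1 averaged 3.64 to 4.13 in HLB01 and 3.52 to 4.08 in Control. The list genes' alternatives were chosen after seeing the data. Depth is unknown, and with 3 libraries a group the median SE of the members, 0.10 on the log2 scale, limits what could be seen.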
